A study of Mus musculus with 12 samples.

Results

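The insulin-like growth factor (IGF) system was examined for BMAL1 binding in control and senescent fibroblasts. The set held 10 genes, the ligands Igf1 and Igf2, the receptors Igf1r and Igf2r, and the binding proteins Igfbp2, Igfbp3, Igfbp4, Igfbp5, Igfbp6 and Igfbp7. A BMAL1 peak was assigned to one of these genes when the nearest protein-coding transcription start site to its midpoint belonged to that gene. This gave 39 of 35822 peaks, which merged into 31 of 16818 regions where peaks of different libraries overlapped. Of the 10 genes, 8 had at least 1 peak in at least 1 library, and Igf2 and Igfbp6 had none. Among all 21875 protein-coding gene symbols, 7949 had a peak in any library.

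Primary mouse adult fibroblasts (MAFs) were grown from the ears of adult female C57BL/6 mice and kept at 3% oxygen. They were either sham irradiated (control) or exposed to 20 Gy of X-rays (senescent). Irradiated cells were cultured for several weeks after the exposure. Both groups were then given 100 nM dexamethasone for 2 hours to synchronize their clocks and were fixed 12 hours later for BMAL1-ChIP-seq, with 3 libraries per group. Dexamethasone was thus shared by both groups, and no library was made without it. The comparison asked where BMAL1 was bound in senescent as opposed to control cells.

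BMAL1 is a circadian transcription factor that acts as a dimer with CLOCK at the E-box CACGTG. IGF ligands are secreted growth factors that signal through Igf1r, a receptor tyrosine kinase, whereas Igf2r clears Igf2 and carries enzymes to the lysosome. The binding proteins hold IGFs in the extracellular fluid, prolong or limit their action, and several of them, among them Igfbp3, Igfbp5 and Igfbp7, are known as secreted products of senescent fibroblasts.

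The peak lists held positions and scores and no reads, so the depth of the libraries is unknown and a missing peak was a peak not called. Lists ranged from 2794 peaks in control replicate 1 to 10601 in control replicate 3, and between 9.32% and 26.5% of the 21875 protein-coding gene symbols received a peak in any one library. Because scores of different libraries are not on one scale, each peak was ranked by its score within its own list, from 0% (best) to 100% (last). Nothing in the sources used here said whether the libraries of a group came from separate cultures, so p-values measure the spread between these libraries, which may be technical.

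The sequences on which the results turn are shown first. All are on the forward strand of GRCm38, and are named by the gene and by the distance in bp of the best peak's centre from its start site, with minus for upstream. Capitals mark the canonical E-box CACGTG, and in the peak 2374 bp upstream of Igf1r also the AP-1 motif TGAGTCA. Shown are the E-box regions that were called in senescent libraries only and either in at least 2 of them or within 3000 bp of a start site.
Igf1r -2374 (chr7:67950364-67950431): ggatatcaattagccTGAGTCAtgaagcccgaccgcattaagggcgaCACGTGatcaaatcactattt
Igf1r -976 (chr7:67951755-67951947): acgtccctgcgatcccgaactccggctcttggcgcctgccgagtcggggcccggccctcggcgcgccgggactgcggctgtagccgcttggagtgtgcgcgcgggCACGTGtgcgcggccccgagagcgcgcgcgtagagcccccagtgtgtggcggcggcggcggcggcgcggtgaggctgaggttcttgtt
Igf1r +5378 (chr7:67958088-67958322): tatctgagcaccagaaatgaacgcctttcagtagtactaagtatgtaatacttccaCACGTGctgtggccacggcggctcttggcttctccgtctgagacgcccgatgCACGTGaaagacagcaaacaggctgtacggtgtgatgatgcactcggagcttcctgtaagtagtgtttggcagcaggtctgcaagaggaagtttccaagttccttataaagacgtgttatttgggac
Igf2r -91 (chr17:12769674-12769837): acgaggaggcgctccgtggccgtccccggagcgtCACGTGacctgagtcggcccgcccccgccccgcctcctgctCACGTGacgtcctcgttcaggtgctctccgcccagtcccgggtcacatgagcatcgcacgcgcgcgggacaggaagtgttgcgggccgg
Igf2r -23029 (chr17:12792629-12792757): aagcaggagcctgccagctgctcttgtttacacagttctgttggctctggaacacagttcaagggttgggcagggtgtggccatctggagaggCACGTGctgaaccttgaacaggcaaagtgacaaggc
Igfbp2 -325 (chr1:72824074-72824133): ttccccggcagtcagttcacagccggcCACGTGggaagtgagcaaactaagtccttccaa

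A further pair is shown for contrast. The region 15837 bp downstream of the Igf1r start site was the IGF region called in most libraries, yet it held no CACGTG within 100 bp of its centre, and capitals mark a copy of the variant AACGTG. The best-ranked Igfbp5 region was called in control replicate 3 only, and capitals mark a RUNX motif (TGTGGTT on the reverse strand).
Igf1r +15837 (chr7:67968564-67968764): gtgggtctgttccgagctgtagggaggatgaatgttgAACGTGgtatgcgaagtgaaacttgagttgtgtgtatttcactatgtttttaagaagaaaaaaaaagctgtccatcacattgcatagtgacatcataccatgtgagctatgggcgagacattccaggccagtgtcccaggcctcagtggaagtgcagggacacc
Igfbp5 +5802 (chr1:72869001-72869060): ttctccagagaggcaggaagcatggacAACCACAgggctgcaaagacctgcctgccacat

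Across the 10 genes the number of peaks did not separate the groups. Control replicates 1, 2 and 3 had 0, 2 and 16 peaks at IGF genes, and senescent replicates 1, 2 and 3 had 8, 10 and 3. The mean of control libraries was 6 ± 8.72 peaks and that of senescent libraries 7 ± 3.61 (SD, n = 3), a difference of 1 that was smaller than the spread in either group. The control values took up both ends of the range, from 0 to 16, and enclosed all senescent values. The sign of the difference rested on single libraries, with 6 without control replicate 3, -2 without control replicate 1, -1 without control replicate 2 and -0.5 without senescent replicate 2.

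The longest list of each group, that of control replicate 3 and that of senescent replicate 2, also had the most IGF peaks of its group. With every list shortened to its 2794 best-scoring peaks, control replicates 1, 2 and 3 had 0, 2 and 1 IGF peaks and senescent replicates 1, 2 and 3 had 3, 1 and 2, so that control replicate 3 fell from 16 to 1 and the groups overlapped. Per 1000 peaks of the list, control replicates 1, 2 and 3 had 0, 0.597 and 1.51 peaks at IGF genes, and senescent replicates had 1.90, 1.02 and 0.594. The means were 0.702 ± 0.760 and 1.17 ± 0.664 (SD, n = 3), and the groups still overlapped. Without control replicate 3 the control mean was 0.299. The number of IGF genes with a peak was 0, 2 and 7 in control and 4, 5 and 1 in senescent libraries. Of all protein-coding gene symbols, 9.32%, 10.8% and 25.3% had a peak in control replicates 1, 2 and 3. In senescent replicates 1, 2 and 3 these shares were 14.4%, 26.5% and 16.6%.

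**Figure D1:**
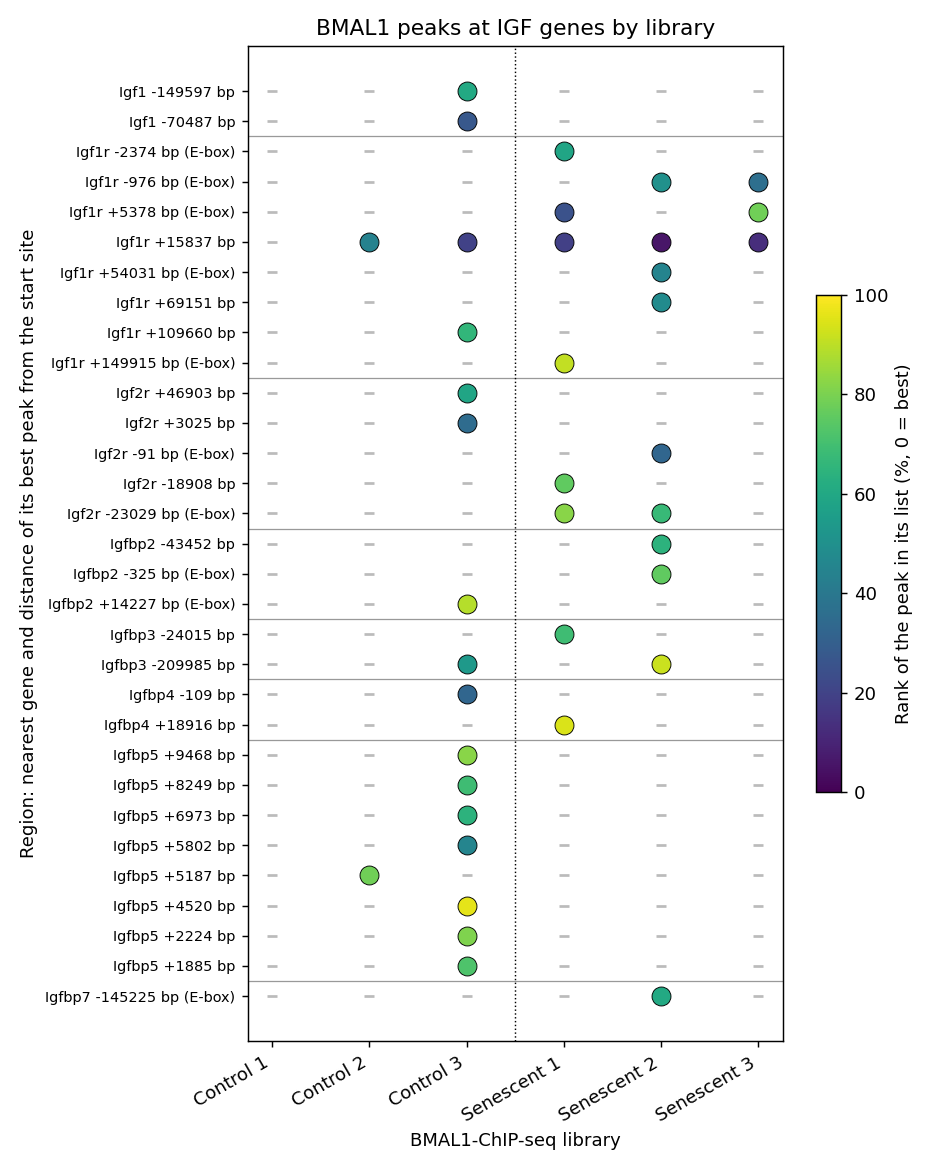
Each row is 1 of the 31 IGF regions, named by gene and distance of its best peak from the start site in bp, and each column is 1 library; a filled circle is a called peak, coloured by its rank in its own list (%, 0 = best), a dash is no call, and (E-box) marks CACGTG within 100 bp of the centre. The column of control replicate 1 is empty, the Igf1r rows fill mostly the senescent columns, and all 8 Igfbp5 rows are filled in control libraries.

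Most IGF regions were seen in 1 library. This held for 26 of 31 regions (83.9%), against 55.7% of all regions, and 14 of the 31 (45.2%) were called in control replicate 3 alone, against 27.8% of all regions. Without that library 13 of 17 IGF regions (76.5%) were seen in 1 library, against 54.2% of all. No IGF region was called in all 6 libraries, a class that held 6.58% of all regions. Senescent-only regions, called in at least 2 senescent libraries and in no control library, numbered 3 of 31 (9.68%), close to the 9.44% of all regions. None of the 31 was control-only by the same rule, against 5.86% of all regions.

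Few IGF regions lay at promoters. Of the 31, 4 (12.9%) had their centre within 1000 bp of a start site, against 33.9% of all regions, and the median distance was 14227 bp against 8024.5 bp. Those 4 lay at Igf1r, Igf2r, Igfbp2 and Igfbp4. The median length was 181 bp for IGF regions and 219 bp for all regions, and the median rank was 64.4% against 58.5% of the list.

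The ligands had few BMAL1 peaks. Igf1, the main circulating IGF, had 2 peaks, both in control replicate 3, in intergenic sequence 149597 and 70487 bp upstream of its earliest start site. They ranked at 60.4% and 27.3% of that list, and neither held an E-box or an AP-1 motif. Without control replicate 3 Igf1 had no peak in any library.

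Igf2, the imprinted ligand of fetal growth, was the nearest gene of no peak. The closest peak of any library lay 123872 bp from an Igf2 start site and was assigned to Mrpl23. That Mrpl23 region was called in control replicate 3 and in all 3 senescent libraries, at 77.5% of the list in the control and 20.8%, 10.9% and 29.2% in senescent replicates 1, 2 and 3. The window of sequence nearer to Igf2 than to any other protein-coding start site was 72.8 kb long.

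Igf1r, which transmits the IGF signal into the cell, was the one member with more peaks in every senescent library than in every control library. It had 0, 1 and 2 peaks in control replicates 1, 2 and 3, and 4, 4 and 3 peaks in senescent replicates 1, 2 and 3. The groups did not overlap, with means of 1 ± 1 and 3.67 ± 0.577 (SD, n = 3), and the difference of 2.67 peaks gave p = 0.1 in a two-sided exact permutation test, the lowest value open to 3 against 3 libraries. Of the 7949 genes with a peak in any library, 5.12% had more peaks in every senescent library, and 1.84% more in every control library. The 7949 include genes with fewer than 3 peaks, which cannot separate in this way. Adjusted over those 7949 genes (Benjamini-Hochberg), the exact permutation p was 1 for every gene.

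The separation of Igf1r depended on how long the lists were. When each list was shortened to its 2794 best-scoring peaks, Igf1r had 0, 1 and 1 peaks in control and 3, 1 and 2 in senescent libraries. The groups then overlapped, and the difference fell to 1.33 (two-sided exact permutation, p = 0.3). With only the better-scoring part of each list, above its median, the counts were 0, 1 and 1 against 2, 3 and 2, without overlap.

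The 14 Igf1r peaks formed 8 regions, 6 of them called in senescent libraries only, 1 in control replicate 3 only, and 1 in both groups. Of all 16818 regions, 5889 were called in senescent libraries only and 6051 in control libraries only. The gene is 280842 bp long on the forward strand of chromosome 7 with 1 annotated start site, at 67952827. Igf1r regions were spread over its upstream sequence and its long introns 1 and 2, and the density was 31.7 regions per Mb of the sequence nearest to Igf1r, against 6.17 per Mb over the genome. Igfbp5, Igf2r, Igfbp4 and Igfbp2 were denser, with 84.0, 58.0, 56.2 and 36.5 regions per Mb. Over the 10 IGF genes together the density was 8.84 regions per Mb.

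**Figure D2:**
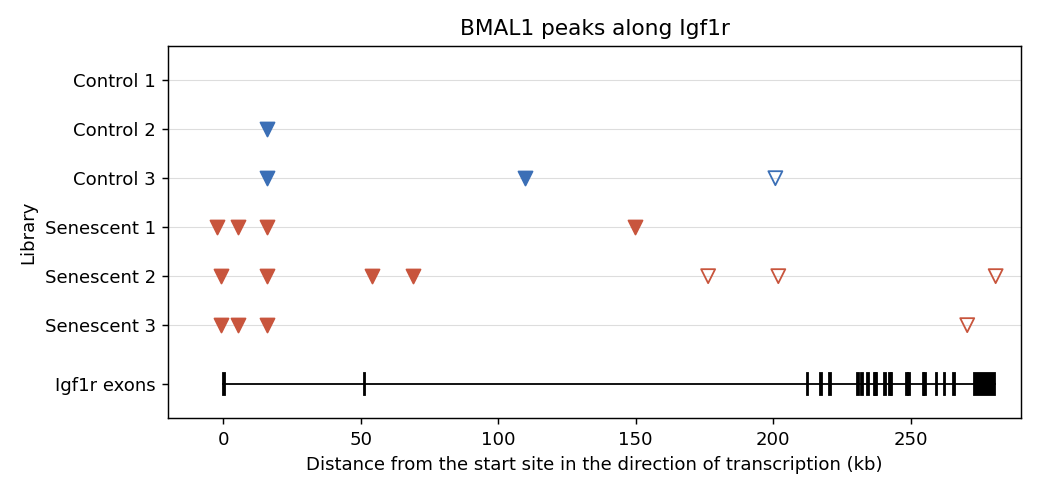
Triangles are the centres of BMAL1 peaks in each library, plotted against the distance from the Igf1r start site in kb, with control libraries in blue, senescent libraries in red, and the exons of Igf1r as black boxes below. Filled triangles are peaks nearest to Igf1r and open triangles peaks nearest to Pgpep1l, and the column of triangles near 15.8 kb, present in 5 of 6 libraries, is the region in intron 1.

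The region in intron 1, 15837 bp downstream of the start site (chr7:67968419-67968867), was the best ranked of all IGF regions. It was not called in control replicate 1 and stood at rank 1476 of control replicate 2 and rank 2082 of control replicate 3. In senescent replicates 1, 2 and 3 it stood at ranks 801.5, 561 and 669. These correspond to 44.1% and 19.6% of the list in the control libraries and to 19.0%, 5.72% and 13.2% in the senescent libraries. All 3 senescent libraries thus placed it higher than either control library that called it, with 19.0% and 19.6% side by side where the groups come closest. The deposited score was 7.15 and 11.5 in control and 19.2, 30.1 and 21.4 in senescent libraries.

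To test the rank, control replicate 1 was placed at the end of its list, since it did not call the region. On this footing control libraries had a mean of 54.6% ± 41.2 and senescent libraries one of 12.7% ± 6.66 (SD, n = 3), a difference of -41.9 percentage points (two-sided exact permutation, p = 0.1, adjusted p = 0.518 over the 1695 regions called in at least 5 libraries). All senescent libraries ranked better than all control libraries by this measure in 14.3% of those 1695 regions. On the scale of rank numbers the difference was -1440 (2117 ± 660 against 677 ± 120, SD, n = 3; exact permutation p = 0.1, adjusted p = 0.292), and 17.8% of the regions separated in the same way. Without control replicate 1, the library that did not call it, the difference was -19.2 percentage points (exact permutation p = 0.1).

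**Figure D3:**
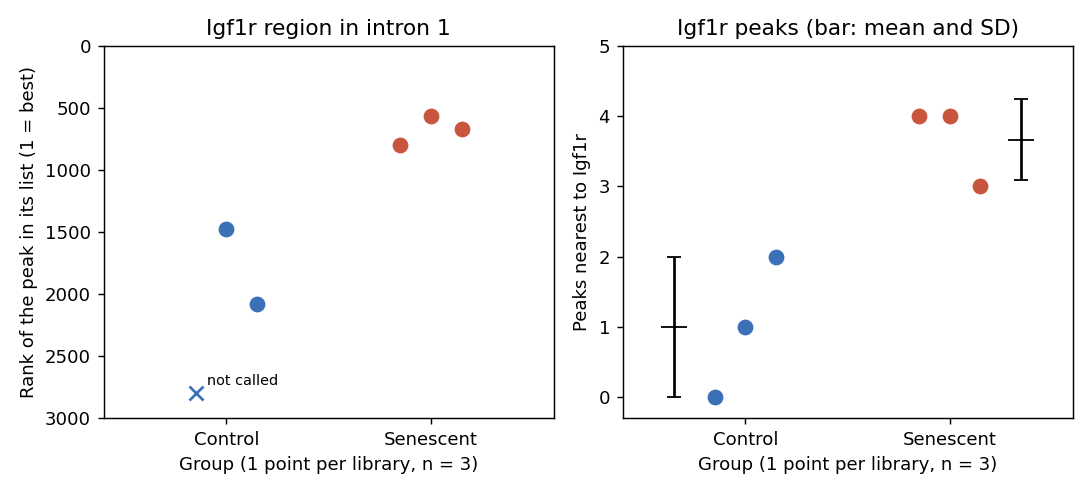
Left, rank of the Igf1r intron 1 peak in its own list (1 = best, axis inverted), with 1 point per library and a cross at the list end for control replicate 1, which did not call it; right, number of peaks nearest to Igf1r per library, with bars for mean and SD (n = 3 per group). Senescent points lie at ranks 561 to 801.5 and control points at 1476 and 2082, and senescent libraries have 3 or 4 peaks against 0 to 2.

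Nearer to the start site, Igf1r had 3 regions called in senescent libraries only, each with an E-box. The region 976 bp upstream (chr7:67951731-67951947, intergenic) was called in senescent replicates 2 and 3 at 50.3% and 36.3% of their lists, and its E-box at 67951860-67951865 lay 11.5 bp from the centre of the best peak. The region 5378 bp downstream (chr7:67958086-67958322, intron 1) was called in senescent replicates 1 and 3 at 25.1% and 78.5%. It held 2 E-boxes with 46 bases between them, at 67958144-67958149 and 67958196-67958201, and a match to the glucocorticoid receptor motif. These 2 regions were senescent-only, each in 2 of 3 libraries and not the same 2.

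The region 2374 bp upstream (chr7:67950349-67950557, intergenic) was called in senescent replicate 1 alone, at 58.7% of its list. It was the one IGF region with both an E-box, at 67950411-67950416, and an AP-1 motif, at 67950379-67950385, within 100 bp of the centre. Of these 3 regions near the start site, senescent replicates 1 and 3 called 2 each and senescent replicate 2 called 1, and no control library called any.

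The remaining Igf1r regions lay in intron 2 and were each called in 1 library. Senescent replicate 2 called those 54031 and 69151 bp downstream of the start site, at 45.3% and 47.7% of its list. Senescent replicate 1 called the one 149915 bp downstream at 90.9%, and control replicate 3 the one 109660 bp downstream at 65.7%. The regions at 54031 and 149915 bp held an E-box and the other pair did not. A further 4 peaks inside the Igf1r gene, from 176360 to 270621 bp downstream, lay nearer to a start site of Pgpep1l and were not counted, of which 3 came from senescent libraries and 1 from control replicate 3.

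Igf2r had 2 peaks in control replicate 3, 2 in senescent replicate 1 and 2 in senescent replicate 2, and none in the other libraries. The group means of 0.667 ± 1.15 and 1.33 ± 1.15 peaks (SD, n = 3) overlapped (two-sided exact permutation, p = 1). Its 6 peaks formed 5 regions, and only 1 of them was shared by a pair of libraries. That senescent-only region (chr17:12792526-12792757) lay 23029 bp upstream of Igf2r within intron 1 of Airn, the antisense RNA of the imprinted Igf2r locus, and was called at 82.3% and 67.4% of the lists of senescent replicates 1 and 2. Its E-box lay at 12792722-12792727.

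The Igf2r start site itself carried a pair of E-boxes inside a called peak. The peak (chr17:12769674-12769837, also in Airn intron 1) was centred 91 bp upstream of the start site and was called in senescent replicate 2 alone, at 32.5% of its list. Its E-boxes at 12769708-12769713 and 12769749-12769754 had 35 bases between them. The other Igf2r regions, called at 35.1% and 58.9% in control replicate 3 (3025 and 46903 bp downstream, introns 1 and 10) and at 75.5% in senescent replicate 1 (18908 bp upstream), held no E-box.

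Among the binding proteins, Igfbp5 had the most peaks, and all of them came from control libraries. The protein binds IGFs in the extracellular matrix. It had 0, 1 and 7 peaks in control replicates 1, 2 and 3 and 0 in every senescent library. The means were 2.67 ± 3.79 and 0 (SD, n = 3), and as control replicate 1 also had none the groups overlapped (two-sided exact permutation, p = 0.4). Without control replicate 3 the difference of -2.67 peaks became -0.5. With lists of equal length only the peak of control replicate 2 was left, and with scores above the list's median only 1 peak of control replicate 3, so the difference was -0.333 in both cases (two-sided exact permutation, p = 1).

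The 8 Igfbp5 peaks were 8 separate regions, all within intron 1 and spread over 7786 bp (chr1:72865326-72873111), from 1885 to 9468 bp downstream of the start site. They were of middle to low rank, from 45.5% to 95.9% of their lists. The best of them, 5802 bp downstream, was also the longest at 574 bp. None held an E-box or an AP-1 motif within 100 bp of its centre, and 2 held a RUNX motif. The peak of control replicate 2, 5187 bp downstream at 78.2% of its list, lay between peaks of control replicate 3 and overlapped none of them.

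Runs of 7 or more peaks at a single gene were most frequent in control replicate 3. They were found at 162 genes there (2.92% of its genes with a peak), against 11 and 22 genes in the other control libraries and 11, 78 and 17 in senescent replicates 1, 2 and 3.

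**Figure D4:**
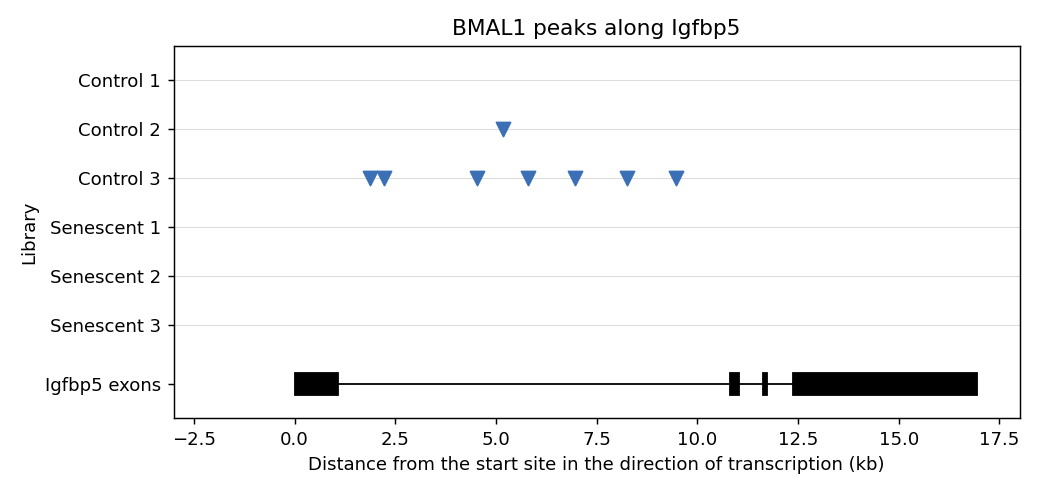
Triangles are the centres of BMAL1 peaks in each library against the distance from the Igfbp5 start site in kb, with the exons of Igfbp5 as black boxes below. All 8 triangles lie in intron 1, 7 of them in control replicate 3 and 1 in control replicate 2, and the rows of the senescent libraries are empty.

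Igfbp2, which is secreted by many cell types and binds both ligands, had 1 peak in control replicate 3 and 2 in senescent replicate 2. The senescent peak 325 bp upstream of the start site (chr1:72824088-72824269) ranked at 75.5% and held an E-box at 72824101-72824106. The other peak of that library, 43452 bp upstream at 64.4%, held none. The control peak, 14227 bp downstream in intron 1, ranked at 89.0%. An E-box at 72839482-72839487 lay within 100 bp of its centre but began before the edge of the peak, at 72839484.

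Igfbp3, the most abundant carrier of IGFs in blood, had 1 peak each in control replicate 3 and senescent replicates 1 and 2. The peaks of control replicate 3 and senescent replicate 2 overlapped 209985 bp upstream of the gene (chr11:7423821-7423995), at 53.6% and 92.0% of their lists. The peak of senescent replicate 1, 24015 bp upstream at 68.8%, had an AP-1 motif at 7237841-7237847, across its edge, and a RUNX motif. Neither region held an E-box.

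Igfbp4, an inhibitor of IGF action, had 1 peak in control replicate 3 and 1 in senescent replicate 1. The control peak ranked at 32.6% and was centred 109 bp upstream of the gene's second annotated start site, at 99047311, which places it in intron 1 of transcripts that begin at 99041244. The senescent peak, 18916 bp downstream, ranked at 94.5% and overlapped a UTR of the neighbouring gene Tns4. Neither held an E-box or an AP-1 motif.

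Igfbp7 and Igfbp6 were almost or wholly without peaks. Igfbp7, which binds IGFs weakly, had 1 peak, in senescent replicate 2, 145225 bp upstream at 60.3% of the list, with an E-box 2.5 bp from its centre. Its surroundings hold few other genes, and 1856 kb of sequence were nearer to Igfbp7 than to any other protein-coding start site. Igfbp6, which prefers Igf2 as its ligand, had no peak, but only 7.15 kb of sequence were nearest to it. The closest peaks, in senescent replicates 2 and 3, lay 7956 and 8122 bp away and were assigned to Spryd3.

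The E-box was then compared between IGF regions and all regions, within 100 bp of the centre of the best peak. It was found in 10 of 31 IGF regions (32.3%), against 16.7% of all regions. In equally long windows placed 2000 bp to the left and right it was found in 4 of 62 (6.45%) for IGF regions and in 2.68% for all regions.

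The E-box regions were called almost wholly in senescent libraries. Of the 14 IGF regions called in senescent libraries only, 9 (64.3%) held an E-box, against 21.2% of all regions called in senescent libraries only. Of the 15 called in control libraries only, 1 (6.67%) held an E-box, against 5.01% of all such regions. Without control replicate 3, the library of 14 of these 15 regions, 0 of 1 was left. Neither of the 2 regions called in both groups held one. The 9 regions belonged to Igf1r (5), Igf2r (2), Igfbp2 (1) and Igfbp7 (1), and the single control region to Igfbp2. The count of 9 rested in part on senescent replicate 2 and on list length. It was 4 of 8 without senescent replicate 2 (32.3% of all such regions), 3 of 3 with lists of equal length (37.4%), and 4 of 5 above the median score (30.4%). As regions of 1 gene and 1 library are not replicates, these shares are a description and no test was made.

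**Figure D5:**
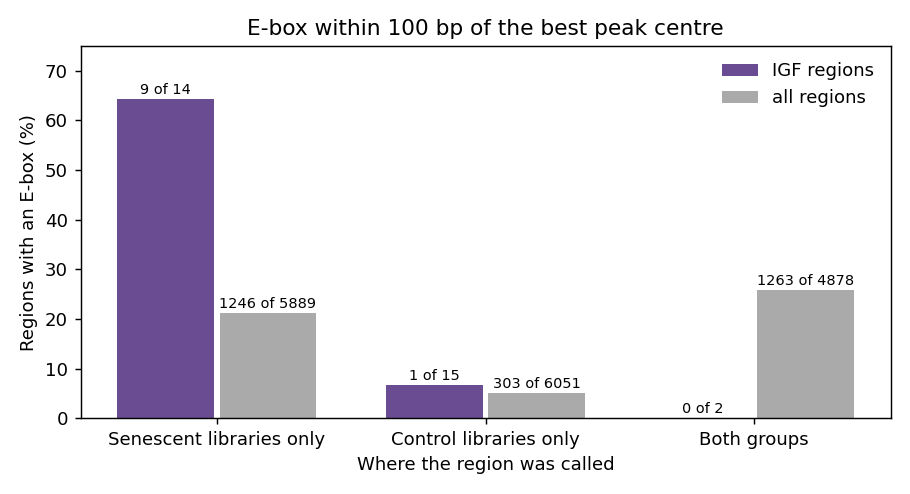
Bars give the percentage of regions with CACGTG within 100 bp of the centre of their best peak, for IGF regions (purple) and all regions (grey), split by the libraries that called them, with the counts above the bars. Senescent-called IGF regions reach 64.3% against 21.2% of all such regions, whereas the control-called regions stand at 6.67% and 5.01%, and without senescent replicate 2 the 9 of 14 senescent-called IGF regions were 4 of 8.

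Counted by library, control replicates 1, 2 and 3 had an E-box in 0 of 0, 0 of 2 and 1 of 16 IGF peaks, and senescent replicates 1, 2 and 3 in 3 of 8, 6 of 10 and 2 of 3. Of all peaks, 30.9%, 24.0% and 13.6% held an E-box in control and 40.1%, 23.3% and 33.3% in senescent libraries. Senescent replicates 2 and 3 were thus above, and senescent replicate 1 close to, the share of their own lists, on few peaks each.

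The other motifs were found in 7 or fewer IGF regions each. The AP-1 motif (TGACTCA or TGAGTCA) was found in 2 of 31 IGF regions (6.45%), against 16.5% of all regions, both called in senescent replicate 1. The RUNX motif (TGTGGTT) was found in 5 of 31 (16.1%) against 7.25%, the TEAD motif (GGAATG) in 7 of 31 (22.6%) against 16.8%, and the NF-Y motif (CCAAT) in 4 of 31 (12.9%) against 29.6%. The motif CAGCTG, used by other factors of the same class as BMAL1, was found in 5 of 31 (16.1%) against 12.2%. The variant AACGTG was found in 1 of 31 (3.23%) against 6.02%, and the glucocorticoid receptor motif in 1 of 31 against 2.28%. All motifs were searched on both strands, and CACGTG and CAGCTG read the same on either.

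Promoter sequence was examined for the same letters whether or not a peak was called. The windows were RefSeq promoters of GRCm38, from 250 bases before to 50 after each start. A single chromosome, which held no member, was left out. Of the 32851 windows, 7.15% held CACGTG. All 10 genes had at least 1 such window. Of their 14 windows, 2 held an E-box, at Igf2r and Igfbp2. Both Igf2r E-boxes lay inside the peak of senescent replicate 2 shown above, whereas the Igfbp2 E-box at 72824338-72824343 lay outside any called peak. The AP-1 motif, found in 5.20% of the windows, was present in another window of Igfbp2, at 72825348-72825354, again outside any peak.

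Finally, 34 other genes of insulin and IGF signalling were examined, from insulin and its receptors to the proteases that free IGFs, the substrates and kinases of the pathway, and the Igf2 mRNA-binding proteins. At least 1 region was nearest to 27 of them, against 35.9% of all genes, and they held 82 regions. Of the 34, 4 genes were the nearest gene of a senescent-only region, namely Insrr, Irs2, Foxo3 and Igf2bp2 (6.44% of all genes had one). Those of Insrr, Foxo3 and Igf2bp2 lay 7247, 2595 and 9581 bp downstream of a start site, that of Insrr also within intron 1 of Pear1. That of Irs2 was intergenic, 361717 bp downstream. Counted by region, the senescent-only ones were 4 of 82 (4.88%), below the 9.44% of all regions. Each of these 4 regions was called in all 3 senescent libraries. All 4 held an E-box, found in 37.8% of all senescent-only regions, for which calls in 2 libraries were enough. A control-only region had 1 of 5 genes as its nearest, namely Ins1, Pappa, Grb10, Grb14 and Pik3r1 (3.60% of all genes). The distance to the start site was 368518 bp for Ins1, and 483068 and 222508 bp for Pappa. It was 17257 bp for Grb10, 29831 bp for Grb14, and 26978, 21921 and 354514 bp for Pik3r1. The 8 control-only regions of these genes were 9.76% of the 82, against 5.86% of all regions. None of the 8 held an E-box, against 8.01% of all control-only regions.

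A promoter region called in all 6 libraries lay at Irs2, the adaptor that links insulin and IGF receptors to PI3 kinase, 554 bp upstream of the start site (chr8:11008789-11009245), with an E-box. Its ranks were 2591.5, 2719 and 1830.5 in the control libraries and 621.5, 485.5 and 534 in the senescent libraries, in replicate order. Every senescent library placed it above every control library, as for the Igf1r region in intron 1, and 17.8% of regions called in at least 5 libraries did so. The region 4422 bp upstream of a start site of Pik3r1, a regulatory subunit of PI3 kinase, was ordered in the same way, at 1837.5, 926.5 and 1508.5 in control and 536.5, 894 and 464.5 in senescent libraries. At Foxo3, a transcription factor that insulin and IGF signalling keeps out of the nucleus, the order of rank numbers was the opposite. Its region 1123 bp upstream stood at ranks 107, 104 and 73 in control and 134, 143 and 129 in senescent libraries, an order found in 16.5% of regions. As percent of the list, however, the groups overlapped at this Foxo3 region. It stood at 3.83%, 3.11% and 0.689% in control and 3.18%, 1.46% and 2.55% in senescent libraries. The Irs2 and Pik3r1 regions stayed separated on that scale. The Pik3r1 and Foxo3 regions, neither within 1000 bp of a start site, were chosen after their values were seen.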

How the data were processed

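BMAL1-ChIP-seq was performed by tagmentation on beads, and sample titles gave the group and replicate. All 6 libraries shared a sequencing lane, per the file headers. The authors mapped reads to mm10 with the Burrows-Wheeler Aligner, marked and removed duplicates (Picard) and ran MACS2 on each library at an FDR of 1% or less. Whether input served as control is not given in the sources used here, and the 6 input libraries were not analysed here. The deposited score was read as the −log10 of a q-value, because the lowest score of each list was 2.02 to 2.12. Scores depend on depth, so ranks within a list were used (tied scores share a mean rank). Read counts were not used, so the depth behind a call is unknown.

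Peaks were assigned to the nearest protein-coding start site (GENCODE M21) and merged into regions at an overlap of 1 bp. Motifs were exact matches on both strands in 201 bp windows. Exact two-sided permutation tests compared 3 with 3 libraries (20 arrangements, smallest p 0.1), with Benjamini-Hochberg adjustment over all genes or regions tested. The members and lists were chosen with earlier results of these data known. All 10 members were named, with values in every library for regions called in at least 2 libraries. Of the other pathway genes, the plan named those with a promoter region of a counted class, which held for Irs2. Insrr, Foxo3, Igf2bp2, Ins1, Pappa, Grb10, Grb14 and Pik3r1 were named outside that plan. The count of other pathway genes with a region called in all 6 libraries is not reported here. The planned rank test needed a region called in all 6 libraries. As no IGF region was, regions called in at least 5 were used, chosen after the data were seen, as was the test of Igf1r peak numbers. The tests of Igf2r and Igfbp5 peak numbers were not planned either. Promoter windows were from RefSeq (GRCm38), where all 10 members matched. Python 3.11.15, pandas 2.3.3, NumPy 2.4.6, SciPy 1.17.1, pysam 0.24.0 and matplotlib 3.10.9 were used, and code was tested on simulated data. Alternatives were a score above the list's median, the 2794 best-scoring peaks of each list, leaving out each library, an overlap of 50% of the shorter peak, group-specific regions in 3 of 3 libraries, start sites of any transcript type or within 100000 bp, motif windows of 50 bp, the whole peak or the merged centre, a promoter distance of 3000 bp, rank numbers and a replicate block.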

Additional observations from a re-analysis of the deposited data

How the results depend on the processing

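Under the alternatives, 89 values stayed within the spread between replicates, on their side of the test or within 1.5 times the count, and 18 moved. The differences tested for Igf1r and Igfbp5 kept their direction throughout, although that of Igfbp5 shrank to -0.333 peaks with equal lists and above the median score. The 3 senescent-only regions became 0 when 3 of 3 libraries were required, 0 with lists of equal length and 0 with the peaks above the median score, and 1 to 3 when a library was left out. Regions with an E-box among those called in senescent libraries only numbered 9, and 3 with equal lists, 4 above the median score, and 4 to 9 when a library was left out (4 without senescent replicate 2). The 1 such region of the control libraries became 0 with equal lists, 0 above the median score, 0 within 50 bp, 0 anywhere in the peak, and 0 to 1 when a library was left out (0 without control replicate 3). Regions called in all libraries numbered 0 to 1, with 1 without control replicate 1. Promoter regions numbered 4, and 1 with equal lists, 7 at 3000 bp and 2 without senescent replicate 2. Leaving out a library gave differences (senescent minus control) of -2 to 6 IGF peaks and -1.17 to 2.33 IGF genes with a peak, whose sign thus turned with single libraries, 2.17 to 3.17 Igf1r peaks, -4 to -0.5 Igfbp5 peaks, and -59.4 to -19.2 percentage points for the rank of the Igf1r intron 1 region. The causes were not tested. Libraries of the same replicate number did not deviate together over the 1106 regions called in all 6 libraries (correlations 0.0755, -0.0507 and -0.0177). Whether equal numbers mark a shared culture or batch was not tested. With a replicate block the rank difference stayed at -41.9 percentage points (exact sign-flip permutation, p = 0.25, the smallest that 3 pairs allow).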
